A study of Mus musculus with 12 samples.

Results

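The HoxC cluster genes are the 9 genes of the mouse homeobox C cluster, Hoxc4, Hoxc5, Hoxc6, Hoxc8, Hoxc9, Hoxc10, Hoxc11, Hoxc12 and Hoxc13. They were taken by symbol from a table of 55335 genes, and all 9 were found, each in 1 row. Polyadenylated RNA of a mouse embryonic stem (ES) cell line had been sequenced on 4 days, days 0, 2, 4 and 6. Each day had 3 libraries, which makes 12. No genotype, transgene or agent is named for any day, and the labels give 1 culture for every library, in serum replacement medium with leukaemia inhibitory factor, which maintains ES cells, over irradiated mouse embryonic fibroblast feeders. What was done to the cells after day 0 is not given, nor whether the replicates were separate cultures, so the spread behind each p-value is that among these libraries and may be technical only. In such bulk RNA, more cells expressing a gene and more RNA per cell cannot be told apart.

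Hox genes encode homeodomain transcription factors that give cells their position along the body axis. In mammals they lie in clusters named A to D, and genes with the same number in different clusters are paralogs that descend from 1 ancestral gene. Low-numbered genes lie toward the 3′ end of a cluster and are switched on earlier and further forward in the embryo than high-numbered ones, and in ES cells the clusters are textbook targets of Polycomb repression and of retinoic acid. HoxC genes are known above all for setting the identity of motor neurons and vertebrae from the neck to the lumbar region.

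The cluster lies on the plus strand of chromosome 15, from 102921103 to 103036852 in GRCm38, the assembly also called mm10. Every HoxC gene there reads in the same direction, starting with Hoxc13 and ending with Hoxc4. The gene model of Hoxc5 begins 46.3 kb from the start of Hoxc13, inside the body of Hoxc10, because of 1 non-coding transcript, and Hoxc5 and Hoxc10 share 166 exon bases. How reads over such bases were assigned is not given in the sources used here, so the counts of these 2 genes are uncertain to that extent. No other pair of HoxC genes shares exon bases.

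The cluster also holds 2 microRNA genes, Mir196a-2 and Mir615, and their short sequences are shown because miR-196 is a known repressor of Hox mRNAs in the mouse, Hoxc8 among them. The mature sequences are RefSeq's, on GRCm38.p6, plus strand, at chr15:102973365-102973386 and chr15:103014926-103014947. They are written 5′ to 3′ with the seed, bases 2 to 8, in capitals, and the 2 seeds differ:
mmu-miR-196a-5p: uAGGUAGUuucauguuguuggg
mmu-miR-615-5p: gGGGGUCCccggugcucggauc
The letters ACTACCT, which pair with the miR-196a-5p seed, were found in the 3′ untranslated region of 1 of the 9 genes, Hoxc8, and in 6.1% of the 21007 genes with such a region. GGACCCC, which pairs with the miR-615-5p seed, was found in Hoxc6 and Hoxc11 among the 9 and in 6.58% of all genes. For the other arms of these microRNAs, miR-196a-2-3p (GTTGCCG) and miR-615-3p (GGCTCGG), 0 of the 9 genes had a match, against 1.4% and 2.3% of all genes. The matches, in capitals, end 1 base before the end of the stretches printed here, which are from GENCODE M21 on GRCm38, plus strand, at chr15:102992975-102992997, chr15:102993732-102993754, chr15:103011173-103011195 and chr15:102956940-102956962:
Hoxc8 near the start of the region: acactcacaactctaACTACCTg
Hoxc8 near the end of the region: ataaatctttaacatACTACCTa
Hoxc6: ctaaaagtcagctttGGACCCCc
Hoxc11: tgacccgtggttagtGGACCCCg
A match of these letters is a description and not a measured site. Mature microRNAs were not measured in these polyadenylated libraries, and the precursor genes had no count in all for Mir196a-2 and 9 for Mir615.

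HoxC RNA rose strongly within 2 days, and its make-up turned over. Hoxc4, Hoxc5, Hoxc6, Hoxc8, Hoxc9 and Hoxc10 were higher at days 2, 4 and 6 than at day 0, and the 2 genes with the highest numbers, Hoxc12 and Hoxc13, were lower. Hoxc8 had the largest fold changes: at days 4 and 6 it and Hoxc4 had the highest levels of the cluster per length, and at day 0 it was nearly without RNA. Hoxc11, with 14 counts over the 12 libraries, had too few to be tested. The other 8 passed the filter on low counts and were tested among 16468 genes with edgeR's quasi-likelihood test. A gene counted as changed at a Benjamini-Hochberg adjusted p under 0.05 over all of them. The SE given come from the test statistic and are too small where a fold change is large and a day had few counts.

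Each of the 3 comparisons with day 0 called 6 HoxC genes higher and 2 lower, and the 3 share the same day 0 libraries. Changes were the rule in these cells, since the background of called genes was 68.1% at day 2, 73.6% at day 4 and 76.9% at day 6, and 89.2% in the test over the 4 days together, which called the 8 HoxC genes tested. The genes called higher made up 34.9%, 37.5% and 39.4% of all genes tested at days 2, 4 and 6, and those called lower 33.2%, 36.1% and 37.5%. The median log2 fold change of the 8 genes was 2.69 at day 2, 3.15 at day 4 and 2.97 at day 6, against 0.02, 0.01 and 0.02 over all genes tested. These counts and medians are a description only, because the filter needs about 1.03 CPM (counts per 1e6 counts) in 3 libraries, which Hoxc12 and Hoxc13 met only with the day 0 libraries and Hoxc6, Hoxc8 and Hoxc9 only with later ones. Hoxc4, Hoxc5 and Hoxc10 met it on every day, and the p-values of the other tested HoxC genes carry the same limit.

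**Figure D1:**
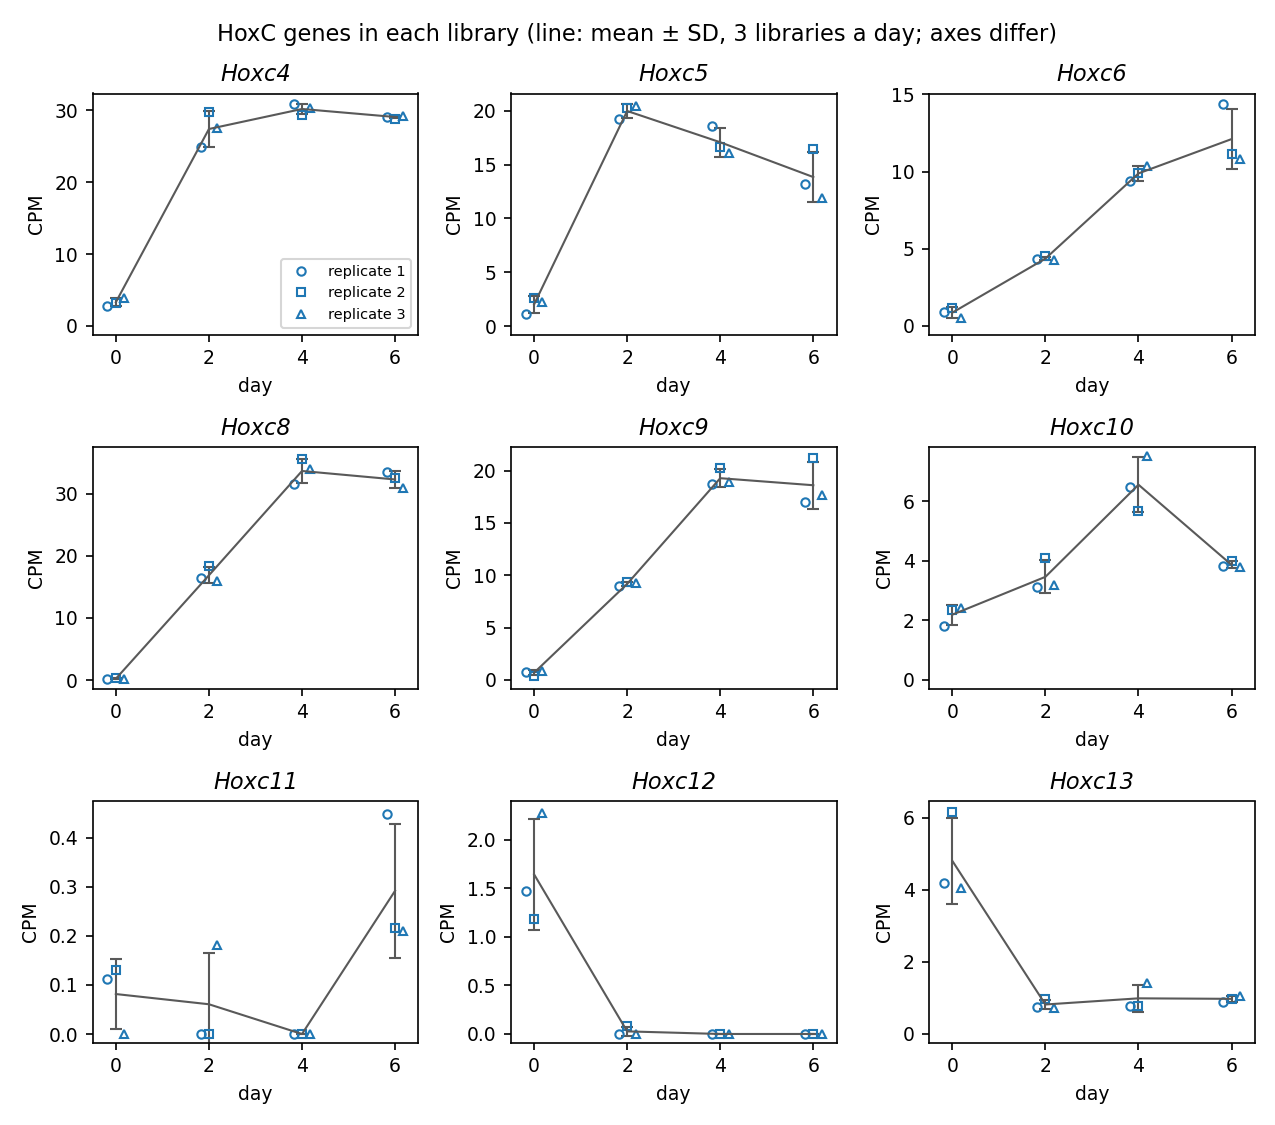
Level of each HoxC gene in CPM (vertical axis, a different range in each panel) by day (horizontal axis); symbols are the 3 libraries of a day and lines join the means, with bars of 1 SD. Hoxc4 and Hoxc5 were near their highest level at day 2, Hoxc8 and Hoxc9 were about midway to theirs, and Hoxc12 and Hoxc13 were highest at day 0.

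Among the genes of the 3′ end of the cluster, Hoxc4, known for its part in neck vertebrae and in B cells, had 2.83, 3.15 and 3.92 CPM in replicates 1, 2 and 3 at day 0, 24.9, 29.7 and 27.6 CPM at day 2, 30.9, 29.4 and 30.2 CPM at day 4, and 29.1, 28.8 and 29.2 CPM at day 6. The day 0 libraries lay far below all later ones, which formed one narrow band. Day 2 was 8.30-fold above day 0 (log2 3.05 ± 0.13 SE, edgeR adjusted p = 9.62e-23), and day 6 was 8.82-fold above it (log2 3.14 ± 0.13 SE, adjusted p = 1.86e-23). Hoxc4 thus had 90.8% of its highest mean level by day 2, and neither day 4 against day 2 (log2 0.14, adjusted p = 0.13) nor day 6 against day 4 (log2 -0.05, adjusted p = 0.615) passed the test, although the day 6 libraries all lay just below those of day 4.

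Hoxc5, which with Hoxa5 is needed for the phrenic motor neurons of the neck, had 1.13, 2.63 and 2.28 CPM at day 0, 19.2, 20.3 and 20.5 CPM at day 2, 18.6, 16.6 and 16.0 CPM at day 4, and 13.2, 16.4 and 11.9 CPM at day 6. The day 2 libraries were the highest, those of day 4 lay just under them, and replicate 2 of day 6 fell within the day 4 range. Hoxc5 was 10.1-fold higher at day 2 than at day 0 (log2 3.33 ± 0.17 SE, edgeR adjusted p = 1.16e-19) and 6.95-fold higher at day 6 (log2 2.80 ± 0.19 SE, adjusted p = 2.13e-16). It was the only HoxC gene with its highest mean level at day 2, and it fell by 0.54 ± 0.11 SE on the log2 scale at day 6 against day 2 (adjusted p = 3.02e-05). The fall by 0.32 ± 0.11 SE at day 6 against day 4 (adjusted p = 0.021) did not pass without replicate 1 of day 4 (adjusted p = 0.132), replicate 1 of day 6 (0.0884) or replicate 3 of day 6 (0.132).

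Hoxc6, a gene of the brachial spinal cord and of upper thoracic vertebrae, had 0.904, 1.18 and 0.506 CPM at day 0, 4.32, 4.50 and 4.27 CPM at day 2, 9.39, 9.89 and 10.4 CPM at day 4, and 14.4, 11.1 and 10.8 CPM at day 6. Each day's libraries lay above those of the day before, without overlap. Hoxc6 was 5.01-fold higher at day 2 than at day 0 (log2 2.32 ± 0.28 SE, edgeR adjusted p = 1.72e-09) and 14.1-fold higher at day 6 (log2 3.82 ± 0.22 SE, adjusted p = 2.66e-18). Only 36.1% of its highest mean level was present at day 2, against 90.8% for Hoxc4 and 100% for Hoxc5, the other genes of this end. The last step, day 6 against day 4 (log2 0.32 ± 0.13 SE, adjusted p = 0.036), rested on single libraries. It did not pass without replicate 1 of day 6, the highest (log2 0.16, adjusted p = 0.411), or without replicate 1 (adjusted p = 0.125) or 2 (0.0798) of day 4.

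In the middle of the cluster, Hoxc8, which sets motor neuron pools of the forelimb level and the pattern of ribs, had 0.226, 0.263 and 0.127 CPM at day 0, 16.4, 18.3 and 15.9 CPM at day 2, 31.6, 35.5 and 33.9 CPM at day 4, and 33.5, 32.5 and 30.9 CPM at day 6. The 3 libraries of day 6 held 1043 counts together, and those of day 0 held 5. Days 0, 2 and 4 lay apart from each other, with day 0 near 0. Hoxc8 was 77.7-fold higher at day 2 than at day 0 (log2 6.28 ± 0.25 SE, edgeR adjusted p = 1.88e-23), 155-fold higher at day 4 (log2 7.27 ± 0.22 SE, adjusted p = 6.69e-28) and 149-fold higher at day 6 (log2 7.22 ± 0.21 SE, adjusted p = 5.42e-28). The 5 counts of day 0 limit the precision of these folds, and the SE printed are too small to show it. Hoxc8 rose again between day 2 and day 4, by 0.99 ± 0.08 SE on the log2 scale (adjusted p = 3.53e-13), with no overlap, and days 4 and 6 overlapped (log2 -0.06, adjusted p = 0.587).

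Hoxc9, which in the mouse sets thoracic motor neuron identity, had 0.791, 0.394 and 0.886 CPM at day 0, 8.94, 9.32 and 9.28 CPM at day 2, 18.7, 20.3 and 18.9 CPM at day 4, and 17.0, 21.2 and 17.7 CPM at day 6. From day 2 on, its time course looked like that of Hoxc8 at a lower level. At day 0 its mean lay above that of Hoxc8 (0.690 against 0.205 CPM). Hoxc9 had days 0, 2 and 4 apart from each other and day 6 overlapping day 4. It was 12.9-fold higher at day 2 than at day 0 (log2 3.69 ± 0.24 SE, edgeR adjusted p = 7.37e-17) and 26.0-fold higher at day 6 (log2 4.70 ± 0.21 SE, adjusted p = 1.88e-22). With 17 counts at day 0, these SE are too small as well. The rise between day 2 and day 4 was 1.07 ± 0.11 SE on the log2 scale (adjusted p = 6.58e-11), and day 6 against day 4 gave -0.07 (adjusted p = 0.62).

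Hoxc10, a gene of the lumbar spinal cord and hindlimb, had 1.81, 2.36 and 2.40 CPM at day 0, 3.11, 4.10 and 3.18 CPM at day 2, 6.49, 5.67 and 7.52 CPM at day 4, and 3.82, 4.00 and 3.78 CPM at day 6. The day 4 libraries stood above all others, and day 6 returned to the range of day 2. Hoxc10 was 2.96-fold higher at day 4 than at day 0 (log2 1.56 ± 0.21 SE, edgeR adjusted p = 1.72e-08) and 1.77-fold higher at day 6 (log2 0.82 ± 0.23 SE, adjusted p = 0.00131). The rise at day 4 against day 2 by 0.90 ± 0.17 SE on the log2 scale (adjusted p = 3.2e-05) and the fall at day 6 against day 4 by 0.74 ± 0.17 SE (adjusted p = 0.000548) both passed. The smaller change at day 2 against day 0 (log2 0.67 ± 0.23 SE, adjusted p = 0.0091) did not pass without replicate 1 of day 0 (adjusted p = 0.0667) or replicate 2 of day 2 (0.0616).

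At the 5′ end, Hoxc13, needed for the keratins of hair and nails, had 4.18, 6.17 and 4.05 CPM at day 0, 0.758, 0.965 and 0.727 CPM at day 2, 0.774, 0.769 and 1.42 CPM at day 4, and 0.898, 0.972 and 1.05 CPM at day 6. Every day 0 library lay above every later one, and the later days overlapped each other. Hoxc13 was 5.75-fold lower at day 2 than at day 0 (log2 -2.52 ± 0.27 SE, edgeR adjusted p = 1.71e-10) and 4.89-fold lower at day 6 (log2 -2.29 ± 0.27 SE, adjusted p = 1.17e-09). Day 4 against day 2 (log2 0.19, adjusted p = 0.705) and day 6 against day 4 (log2 0.04, adjusted p = 0.945) did not pass.

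Hoxc12, the neighbour of Hoxc13, had 13, 9 and 18 counts in the 3 libraries of day 0, or 1.47, 1.18 and 2.28 CPM. Its later libraries held 1 count, in replicate 2 of day 2, and none at days 4 and 6. Day 2 over day 0 gave 0.0166 in CPM (95% counting interval 0.000411 to 0.0981). Against a floor of 3 counts summed over a day's libraries, Hoxc12 was at least 15.2-fold lower at day 4 and at least 17.6-fold lower at day 6 than at day 0. It was called lower in each of these comparisons (edgeR adjusted p = 5.08e-08 at day 2, 7.31e-08 at day 4 and 2.38e-08 at day 6). Hoxc12 met the filter only through the 3 libraries of day 0, its highest day, so these calls are a description only.

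Hoxc11, a gene of the hindlimb and developing kidney, had 1 count each in replicates 1 and 2 at day 0, and 2 counts at day 2, both in replicate 3. It had none at day 4, and 10 counts at day 6, as 6, 2 and 2 in replicates 1, 2 and 3. Against a floor of 3 counts summed over the libraries of day 4, day 6 was at least 2.88-fold higher. That bound leaves out counting error in the 10 counts of day 6. The CPM ratio of day 6 to day 0 was 3.79 with a 95% interval of 0.808 to 35.6, so a difference from day 0 was not detectable at this depth, while that of day 6 to day 2 was 5.70 (1.21 to 53.5). Such intervals cover counting error only.

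**Figure D2:**
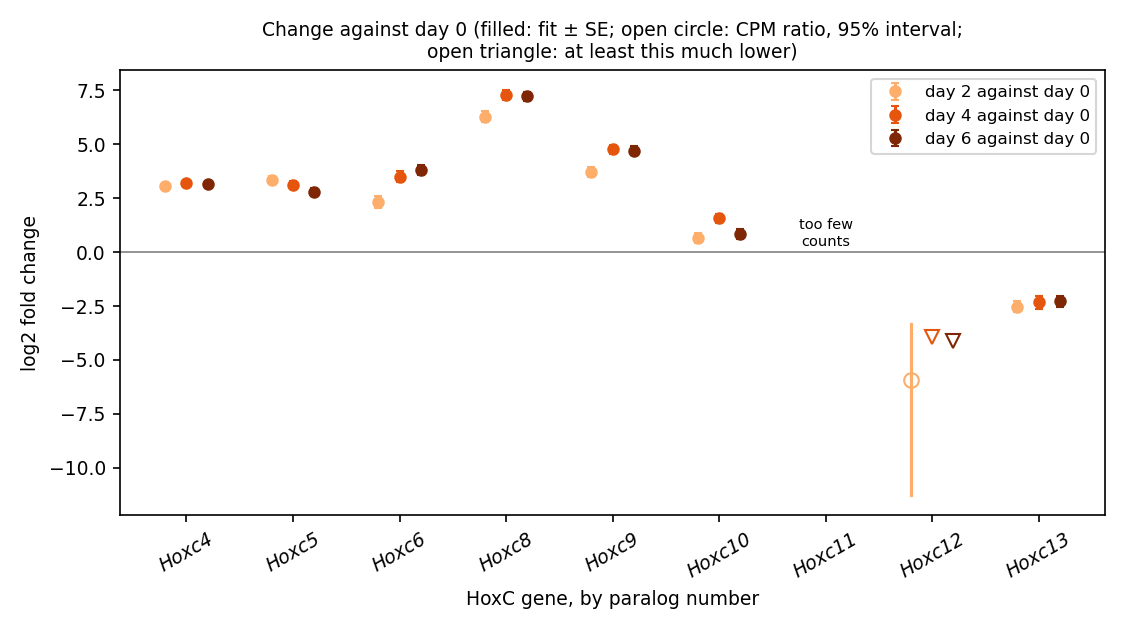
Log2 fold change against day 0 (vertical axis) for each HoxC gene in order of its number (horizontal axis), at days 2, 4 and 6; filled points are fitted values ± SE, the open circle is a CPM ratio with its 95% counting interval, and open triangles are bounds. Values run highest at Hoxc8, at 6.28, 7.27 and 7.22, and lie below 0 at Hoxc12 and Hoxc13. The SE bars are too short where day 0 had few counts, as at Hoxc8.

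Between successive days the HoxC genes parted. At day 4 against day 2, Hoxc6, Hoxc8, Hoxc9 and Hoxc10 rose and none fell with edgeR, DESeq2 or limma-voom, where 50.1% of all genes were called, 25.3% higher and 24.8% lower. At an unadjusted p under 0.05, 1 gene was lower, Hoxc5 (log2 -0.22, edgeR adjusted p = 0.08). The median log2 fold change of the 8 genes was 0.54, against 0.00 over all genes tested. It includes Hoxc12, whose 1 count at day 2 and 0 at day 4 give no usable fold. At day 6 against day 4, the median was -0.05, against 0.02 over all genes tested, with Hoxc12 included at 0 counts on both days. In this step Hoxc6 rose and Hoxc5 and Hoxc10 fell, where 42.9% of all genes were called, 23.6% higher and 19.3% lower. With DESeq2 (adjusted p = 0.184 for Hoxc6 and 0.0684 for Hoxc5), or without replicate 1 of day 4 or replicate 1 of day 6, only 1 of these 3 calls, that of Hoxc10, passed. Hoxc6 also missed the threshold with upper-quartile scaling, library size alone or no filter (adjusted p = 0.0572, 0.0539 and 0.0655). Over the longer step, at day 6 against day 2, Hoxc6, Hoxc8 and Hoxc9 were higher and Hoxc5 was lower, where 63.6% of all genes were called, 32.4% higher and 31.2% lower.

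Along chromosome 15 the direction of change followed the order of the genes, apart from size. Hoxc13 and Hoxc12, the first in the direction of transcription, were lower at day 6 than at day 0, Hoxc11 had too few counts, and every gene from Hoxc10 to Hoxc4 was higher. The size did not run in order, since Hoxc8 and Hoxc9, in the middle, had larger log2 fold changes (7.22 and 4.70) than Hoxc6, Hoxc5 and Hoxc4 (3.82, 2.80 and 3.14). The time to reach the highest level did not follow the numbers at every step either. At day 2, Hoxc4 and Hoxc5 had 90.8% and 100% of their highest mean level, Hoxc6 had 36.1%, Hoxc8 and Hoxc9 had 50.1% and 47.6%, and Hoxc10 had 52.8%. Differences between genes were not tested.

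**Figure D3:**
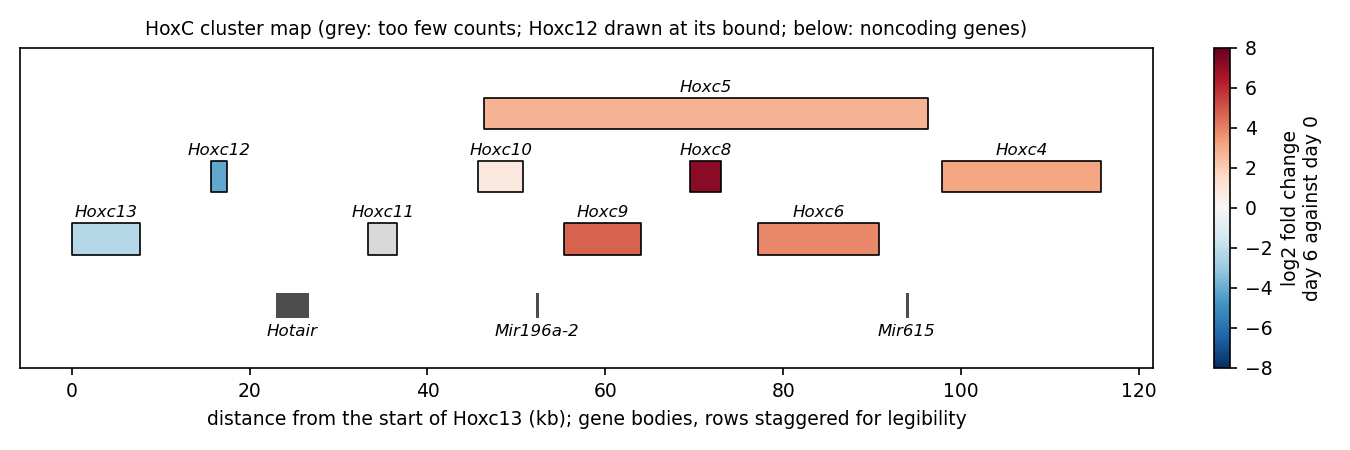
Map of the HoxC cluster to scale in kb from the start of Hoxc13 (horizontal axis), with gene bodies on staggered rows and coloured by the log2 fold change of day 6 against day 0. Hoxc13 and Hoxc12 (at its bound) are blue, Hoxc11 is grey for too few counts, and the genes from Hoxc10 on are red, deepest at Hoxc8 with 7.22; the dark bars underneath are noncoding genes.

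Of 7 noncoding genes annotated between Hoxc13 and Hoxc4, 5 had no count in any library. Hotair, an antisense long noncoding RNA of the Hoxc11 to Hoxc12 interval that is known from human cells to bind repressive complexes, had 2 counts, both at day 6, and Mir615 had 9 counts. Of 4 flanking genes, 1 was higher and 2 were lower at day 6 than at day 0. Over all genes tested, 76.9% were called in that comparison, 39.4% higher and 37.5% lower. Smug1, a DNA glycosylase of base excision repair, averaged 30.5 CPM at day 6 and 13.2 CPM at day 0 (log2 1.20 ± 0.10 SE, edgeR adjusted p = 5.67e-14), and Cbx5, which encodes the heterochromatin protein HP1 alpha, averaged 187 CPM at day 6 and 197 CPM at day 0 (log2 -0.07, adjusted p = 0.159). Calcoco1 and Hnrnpa1 were lower by 0.20 and 0.35 on the log2 scale (adjusted p = 0.00152 and 2.85e-05).

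Summed over the cluster, HoxC RNA was 15.8 ± 2.09 CPM at day 0, 82.2 ± 4.88 CPM at day 2, 118 ± 1.12 CPM at day 4 and 111 ± 5.0 CPM at day 6 (SD, n = 3 libraries). To compare genes, levels were divided by exon length, the bases of all annotated exons of a gene, and are given as CPM per kb. For Hoxc5 these 3089 bases include exons of the non-coding transcript that begins inside Hoxc10. The per-kb level of Hoxc5, and the shares, depend on that choice. At day 0 the order of the means was Hoxc13 (1.95 ± 0.48), Hoxc12 (1.59 ± 0.55), Hoxc4 (1.28 ± 0.22), Hoxc10 (1.15 ± 0.17), Hoxc5 (0.65 ± 0.25), Hoxc6 (0.36 ± 0.14), Hoxc9 (0.28 ± 0.11) and Hoxc8 (0.07 ± 0.02 CPM per kb, SD, n = 3). At day 6 it was Hoxc8 (11.4 ± 0.47), Hoxc4 (11.3 ± 0.08), Hoxc9 (7.66 ± 0.93), Hoxc6 (5.03 ± 0.82), Hoxc5 (4.48 ± 0.75), Hoxc10 (2.02 ± 0.06) and Hoxc13 (0.40 ± 0.03 CPM per kb). At day 0 only Hoxc10 and Hoxc5, and Hoxc9 and Hoxc8, among neighbours in the order, differed by more than the sum of their SDs, and at day 6 Hoxc8 with Hoxc4 and Hoxc6 with Hoxc5 did not.

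As shares of the per-kb sum, Hoxc13 made up 26.5 ± 5.83% and Hoxc12 21.6 ± 6.48% at day 0, and Hoxc13 was at 1.07 ± 0.11% at day 2 and 0.93 ± 0.11% at day 6 (SD, n = 3). The genes Hoxc10 to Hoxc13 together made up 64.1% at day 0, 7.10% at day 2, 8.51% at day 4 and 6.05% at day 6. Hoxc8 and Hoxc9 made up 4.92%, 31.5%, 44.0% and 44.9% at the same days, and Hoxc4 to Hoxc6 30.9%, 61.4%, 47.5% and 49.1%. Per length, the cluster's RNA was mostly of Hoxc4 to Hoxc9 at every later day. At day 0 it was mostly of Hoxc10 to Hoxc13, at a low total. Hoxc10 alone made up 15.5% at day 0 and 4.77% at day 6, although its own level rose.

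**Figure D4:**
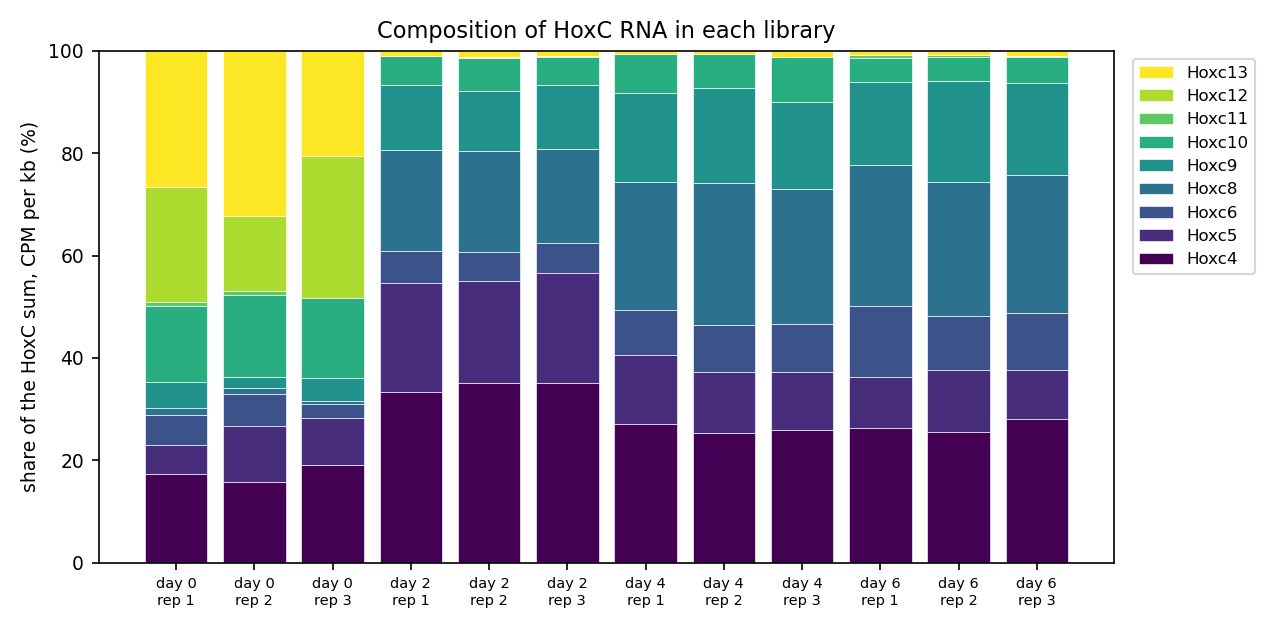
Share of each HoxC gene in the cluster's summed CPM per kb (vertical axis, percent) in each of the 12 libraries (horizontal axis), stacked by gene number from Hoxc4 at the bottom. The 3 libraries of each later day resemble each other. At day 0 they differ more, with Hoxc12 at 14.7% to 27.6% and Hoxc13 at 20.6% to 32.2%. Hoxc13 and Hoxc12 take at most 1.07% each on average from day 2 on, against 26.5% and 21.6% at day 0.

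Set beside their paralogs at day 6 against day 0, the HoxC genes of groups 4 to 10 went the same way as the A, B and D genes that were tested, and of group 13 only Hoxc13 passed. In group 4 the log2 fold changes were 3.14 for Hoxc4, 2.50 for Hoxa4, 3.82 for Hoxb4 and 2.73 for Hoxd4, and in group 9 they were 4.70 for Hoxc9, 2.48 for Hoxa9, 3.55 for Hoxb9 and 1.61 for Hoxd9, each with an edgeR adjusted p of 7.58e-06 or less. In group 8, Hoxc8 had 1043 counts at day 6 and 5 at day 0, Hoxb8 had 1332 at day 6 and 2 at day 0, a ratio of 505 in CPM (95% counting interval 139.5 to 4174), and Hoxd8 rose by 1.57 on the log2 scale.

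In groups 5 and 6 the paralogs had larger fold values than the HoxC gene, a difference that was not tested. Hoxc5 rose by 2.80 on the log2 scale, Hoxa5 by 4.31, and Hoxb5, with no count at day 0, was at least 93.0-fold higher. Hoxc6 rose by 3.82, and Hoxa6 by 4.34, a value that rests on only 4 counts at day 0. Hoxb6, with 3 counts at day 0, had a CPM ratio of 357 (95% counting interval 122 to 1734). In group 10, Hoxc10 rose by 0.82 and Hoxa10 by 1.12.

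In group 13, Hoxc13 was lower by 2.29 on the log2 scale, and Hoxa13 (-0.23, edgeR adjusted p = 0.499), Hoxb13 (-0.37, adjusted p = 0.0817) and Hoxd13 (-0.60, adjusted p = 0.0611) did not pass at day 6. At day 2, Hoxa13 (-1.13, adjusted p = 0.00395) and Hoxd13 (-0.78, adjusted p = 0.0179) were lower than at day 0 as well, and Hoxb13 was not (0.01, adjusted p = 0.978). At day 4, Hoxd13 was lower (-1.001, adjusted p = 0.00568), and Hoxa13 (-0.22, adjusted p = 0.531) and Hoxb13 (0.02, adjusted p = 0.938) did not pass. Whether Hoxc13 changed by more than its paralogs was not tested.

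**Figure D5:**
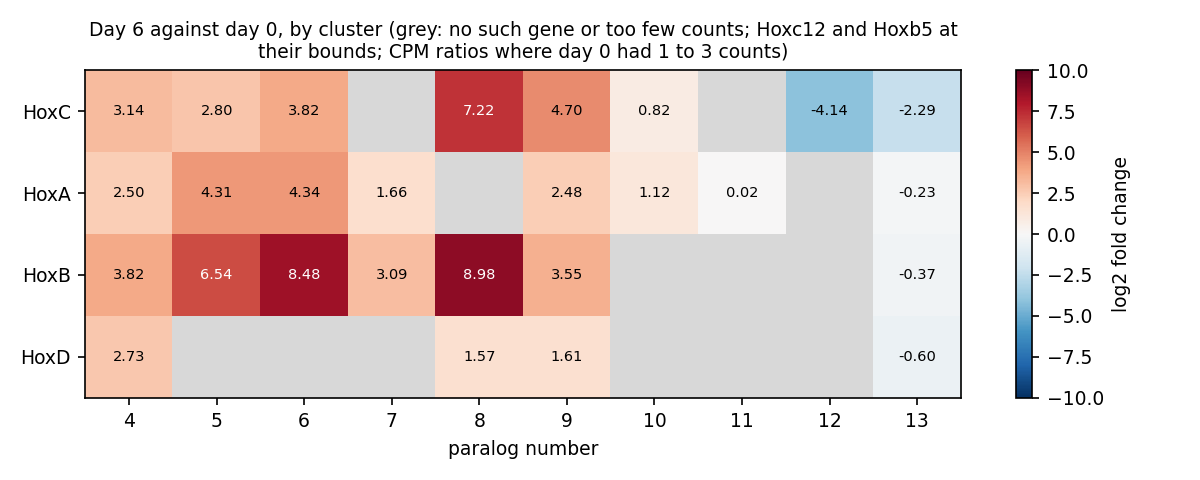
Log2 fold change of day 6 against day 0 by paralog number (horizontal axis) and cluster (rows), with the value printed in each cell; grey cells have no gene or too few counts, Hoxc12 and Hoxb5 are at their bounds, and genes with 1 to 3 counts at day 0 are CPM ratios. The HoxC row runs from 3.14 at group 4 to 7.22 at group 8 and -2.29 at group 13, where the other clusters lie between -0.60 and -0.23.

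The clusters had their highest mean sums on different days. The per-kb sum of HoxC was 7.38 ± 0.88, 30.9 ± 1.93, 45.0 ± 0.53 and 42.5 ± 1.83 CPM per kb at days 0, 2, 4 and 6. HoxB stood at 6.48 ± 0.97, 208 ± 8.09, 142 ± 3.71 and 101 ± 2.34 CPM per kb (SD, n = 3), and HoxA at 9.57 ± 0.55, 81.9 ± 2.74, 74.3 ± 3.87 and 65.4 ± 2.83 CPM per kb. HoxD stood at 4.44 ± 0.17, 5.80 ± 0.36, 10.07 ± 0.49 and 10.9 ± 0.31 CPM per kb. So HoxB and HoxA had their highest mean sum at day 2, HoxC at day 4 and HoxD at day 6. The HoxD libraries of days 4 and 6 overlapped, and differences of these sums between days were not tested. Between days 2 and 4, HoxC had 4 genes up of 8 tested, HoxD 4 up of 6, HoxA 3 up and 2 down of 11, and HoxB 1 up and 5 down of 10, against 25.3% up and 24.8% down over all genes tested.

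For the 6 HoxC genes that reached 5 CPM, the genes with the most similar course were sought by the root mean square difference of centred log2 CPM over the 12 libraries. Closest to Hoxc4 were Zfp202 (0.16), Mest (0.17) and Antxr2 (0.18). Closest to Hoxc5 were Fam90a1a (0.22), Lgals4 (0.26) and Rasgrp3 (0.28), and to Hoxc6 Nsg2 (0.21), Lcp1 (0.21) and Serpinh1 (0.24). Hoxc8 was nearest to Svep1 (0.22), Stra6 (0.34) and Pramel7 (0.36), Hoxc9 to Maml3 (0.25), Car3 (0.25) and Wls (0.27), and Hoxc10 to Kank4os, Taf7l2 and Snw1 (0.16 each). No HoxC gene had another Hox gene among its 3 closest, and the nearest ones included Hoxb7 for Hoxc4 (0.29), Hoxd3 for Hoxc6 (0.39), Hoxb3 for Hoxc8 (0.47), Hoxa2 for Hoxc9 (0.42) and Hoxd1 for Hoxc10 (0.30).

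Hox proteins bind DNA with cofactors of the PBC and MEIS families, and of 9 such genes 7 were higher and 2 lower at each later day than at day 0. The shares over all genes tested were 34.9%, 37.5% and 39.4% higher at days 2, 4 and 6, and 33.2%, 36.1% and 37.5% lower. Meis1 averaged 106 CPM at day 6 and 3.49 CPM at day 0 (log2 4.93, edgeR adjusted p = 5.14e-35). Meis2 rose by 3.26 on the log2 scale, and Pbx4 and Pknox1 fell by 1.43 and 0.35.

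Of 6 genes for known regulators of Hox transcription, the caudal factors and the retinoic acid receptors, 5 were tested, and 2 rose and 3 fell at day 6. Among all genes tested, 39.4% were called higher and 37.5% lower at day 6. Rarb, a receptor gene that retinoic acid itself induces, averaged 157 CPM at day 6 and 0.675 CPM at day 0 (log2 7.78, edgeR adjusted p = 1.16e-37). Rara and Rarg were lower by 0.95 and 1.90 on the log2 scale. Cdx2 averaged 2.67 CPM at day 6 and 0.170 CPM at day 0 (log2 3.91, adjusted p = 1.1e-08), while Cdx1 averaged 0.773 CPM at day 6 and 10.5 CPM at day 0 (log2 -3.73, adjusted p = 9.34e-19). Cdx4 had 9 counts in all.

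The labels call every library ES cells, and markers of pluripotent cells were highest at day 0. Of 6 markers of pluripotent cells, 6 were lower at day 6, and their summed level was 538 to 564 CPM at day 6 and 4202 to 4220 CPM at day 0. Fibroblasts of the trunk express Hox genes too, and 13 fibroblast markers moved with the HoxC genes in part. Their summed level was 47.1 to 53.4 CPM at day 0, 69.7 to 72.7 CPM at day 2, 85.9 to 94.95 CPM at day 4 and 239 to 261 CPM at day 6. Of the 11 that were tested, 4 rose and 3 fell at day 2, 7 rose and 2 fell at day 4, and 9 rose and 2 fell at day 6. Over all genes tested, 34.9%, 37.5% and 39.4% were called higher at days 2, 4 and 6, and 33.2%, 36.1% and 37.5% lower. At day 2 the collagen gene Col1a2 averaged 12.9 CPM against 1.88 CPM at day 0, and the fibrillin gene Fbn1 36.3 CPM against 16.3 CPM at day 0. In the other direction, Thy1 averaged 1.58 CPM at day 2 against 11.6 CPM at day 0. Col1a1 averaged 2.97 against 5.89 CPM, and Pdgfrb 7.17 against 9.80 CPM, on the same days. Lum and Fap were at 0 at day 0, and Dcn, with 4 counts at day 0, was at 0 at day 2. The part of fibroblasts or of other cell types in the HoxC values was not tested.

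Summed marker levels of other lineages moved as well. Those of 8 extraembryonic endoderm markers were 115 to 120 CPM at day 0, 693 to 709 CPM at day 2, 1013 to 1028 CPM at day 4 and 850 to 865 CPM at day 6, and 8 of 8 rose at day 6. Those of 9 mesoderm markers were 110 to 128, 162 to 168, 269 to 276 and 236 to 239 CPM at days 0, 2, 4 and 6, and of 7 tested 4 rose and 3 fell at day 6. The endoderm and mesoderm sums were highest at day 4, as the HoxC sum was, but most single markers were not. Dab2 averaged 536 CPM at day 4 and 365 CPM at day 6, Cubn 291 and 235 CPM, and Meox1 117 and 54.9 CPM. Gata4, Gata6, Sox17, Sox7, Afp and Ttr of the endoderm list had their highest means at day 6. So did Foxf1, Pdgfra and Osr1 of the mesoderm list, while Tbx6, Tcf15, Tbx5 and Hand1 were highest at day 0. The summed levels of 8 neural progenitor markers were 78.4 to 84.2, 79.7 to 80.4, 104 to 110 and 108 to 119 CPM at days 0, 2, 4 and 6. Of these markers, 6 rose and 2 fell at day 6. The share of all genes tested that rose at day 6 was 39.4%, and 37.5% fell. Library totals ran from 6.95 to 13.3 times 1e6 counts, in which 22866 genes of the table had no count.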

How the data were processed

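Polyadenylated RNA of mouse ES cells was measured in 12 libraries, 3 per day. The deposited values are whole-number counts per gene for each library. A SMARTER mRNA-Seq kit was used, per the labels' protocols. The genome mm10 and the tools featureCounts 2.0.1, HISAT2 2.1.0, DESeq2 and FastQC 0.11.7 are named, without roles, per the submitters' processing notes. The annotation release, the use of strand and the handling of multi-mapping reads are not given in the sources used here, so reads from overlapping or antisense genes cannot be told apart. Of 55335 gene IDs, 55154 matched GENCODE M21, which gave positions and exon lengths; miRNA sequences are RefSeq's.

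The analysis used edgeR 4.0.16 in R 4.3.3: filterByExpr by day, TMM scaling and 1 robust quasi-likelihood fit of all 12 libraries with a coefficient per day, two-sided, with Benjamini-Hochberg adjustment over the 16468 genes tested. SE were recovered from the test statistic, as the size of the log2 fold change over the square root of the F statistic. They are too small for large fold changes from few counts. CPM used TMM-scaled totals. Where a day had no count, folds are bounds against 3 counts summed over its libraries, which leave out counting error on the other day. With 1 to 3 counts, ratios carry exact 95% binomial intervals. The procedure was also run on simulated data, whose outcome is not given here. The folds set in them were far smaller than those of Hoxc8. Library totals ran from 6.95 to 13.3 times 1e6 counts.

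The HoxC genes and all lists were chosen with earlier results of these data known. The genes named are the HoxC genes, their paralogs, flanking genes and those lists, and the 3 most similar genes of each HoxC gene with at least 5 CPM on its highest day (candidates of at least 1 CPM, leaving out clone-like symbols). Alternatives were other scalings and filters, DESeq2 1.42.0, limma-voom (limma 3.58.1), adjusted p under 0.01, fits to 6 libraries, a replicate block and each library left out. Some withheld items are not reported here. Plots were made in matplotlib 3.10.9 (Python 3.11.15).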

Additional observations from a re-analysis of the deposited data

How the results depend on the processing

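Of the values of single HoxC genes under the alternatives, 965 kept their direction and their side of the threshold, 16 lost their call, 1 gained one and 5 turned sign. The HoxC genes called numbered 3 at day 6 against day 4, and 1 under adjusted p under 0.01, 1 with DESeq2, and 1 to 3 with a library left out, 1 without replicate 1 of day 4 or of day 6. With a library left out, 7 to 8 were called at day 2 against day 0, 4 to 5 at day 4 against day 2, 8 at day 4 and at day 6 against day 0, 4 at day 6 against day 2 and 8 over the 4 days. The calls lost were of Hoxc5, Hoxc6 and Hoxc10. In the step from day 4 to day 6, Hoxc6 did not pass with upper-quartile scaling (adjusted p = 0.0572), library size alone (0.0539), no filter (0.0655), DESeq2 (0.184) or the 6 libraries alone (0.0563), nor Hoxc5 with DESeq2 (0.0684). Without replicate 2 of day 2, Hoxc4 passed at day 4 against day 2 (log2 0.21, adjusted p = 0.0379). Values near 0 turned sign: Hoxc13 at day 6 against day 4 was -0.10 without replicate 1 of day 4, -0.11 without replicate 2 of day 4 and -0.01 without replicate 3 of day 6, and 0.32 at most over the left-out libraries. At day 4 against day 2 Hoxc13 ran from -0.085 without replicate 3 of day 4 to 0.34 without replicate 2 of day 4, and Hoxc9 at day 6 against day 4 from -0.16 without replicate 2 of day 6 to 0.0057 without replicate 1 of day 6. The cause was not tested. Scaling by library size alone put the HoxC sum at day 4 at 121 CPM, against 118, shifted the median of all genes against day 0 by 0.13 at days 2 and 4 and 0.10 at day 6 (log2), and split the calls at day 2 against day 0 into 7053 higher and 4412 lower, against 5743 and 5473. Replicate numbers did not pair the libraries (correlations of same-numbered deviations -0.0381 to 0.0343; 4 of 12 libraries correlated best with their own number), and with the replicate block the HoxC calls stayed at 8, 8 and 8 against day 0 and 4, 3 and 4 at day 4 against 2, 6 against 4 and 6 against 2. Without a filter Hoxc11 passed over the 4 days (edgeR adjusted p = 0.0241) and at day 6 against day 4 (0.0159). Depth limits Hoxc11, Hoxc12 and the day 0 level of Hoxc8.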
